A study of Mus musculus with 2 samples.

Results

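The miR-17-92 and miR-106b-25 clusters were examined in small RNA of fetal mouse liver, in 1 library from Ago2ADH animals and 1 library from wild type animals. Ago2ADH is an Argonaute 2 that binds small RNAs but cannot cleave RNA. Both libraries came from strain B6/129 at stage E18.5, and the labels name no other allele and no treatment. How many fetuses gave the RNA of each library is not given in the sources used here. With 1 library per genotype, no difference below has a replicate check, and no p-value is given. The members are the deposited table's miRNA-class sequences named mmu-mir-17, mmu-mir-18a, mmu-mir-19a, mmu-mir-20a, mmu-mir-19b, mmu-mir-92a, mmu-mir-106b, mmu-mir-93 or mmu-mir-25, with locus copies joined. They make up 9 of 358 miRNA names and 512 of 12128 distinct miRNA sequences.

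The hairpins of each cluster are cut from a shared transcript by Drosha and then by Dicer, and an Argonaute keeps mainly 1 arm of each duplex. A duplex paired across its centre can lose its passenger strand to Argonaute 2 slicing, while most miRNA duplexes are bulged there and unwind without it. Both clusters are known for high levels in dividing cells, including blood-forming cells. Myc and E2F factors activate them, and their products hold down Bcl2l11, Cdkn1a and E2F mRNAs.

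The miR-17-92 cluster lies on the plus strand of chromosome 14 (GRCm38) within 836 nt, inside an exon of its noncoding host gene Mir17hg (chr14:115042879-115046727). The order is Mir17, Mir18, Mir19a, Mir20a, Mir19b-1 and Mir92-1, with gaps of 35 to 96 nt between neighbours. The miR-106b-25 cluster lies on the minus strand of chromosome 5 within 498 nt, inside Mcm7 (chr5:138164583-138172422), which encodes a subunit of the replicative helicase. Its order is Mir106b, Mir93 and Mir25. Mir93 and Mir25 overlap an exon of the annotated transcript Mcm7-202, and Mir106b overlaps no annotated exon of Mcm7. Second copies of the miR-19b and miR-92a hairpins, Mir19b-2 and Mir92-2, lie on chromosome X.

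The mature sequences of the guide arms are shown because the members fall into seed families that cut across both clusters. They are RefSeq sequences (GRCm38.p6), written 5′ to 3′, and the capitals mark the seed, bases 2 to 8. The first 4 share 1 seed, miR-18a-5p has a closely related one, and the last 2 pairs have a seed each.
miR-17-5p: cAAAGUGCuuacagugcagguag
miR-20a-5p: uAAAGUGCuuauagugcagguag
miR-106b-5p: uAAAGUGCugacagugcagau
miR-93-5p: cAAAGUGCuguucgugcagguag
miR-18a-5p: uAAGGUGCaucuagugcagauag
miR-19a-3p: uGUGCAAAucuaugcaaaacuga
miR-19b-3p: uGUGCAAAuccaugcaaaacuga
miR-92a-3p: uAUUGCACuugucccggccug
miR-25-3p: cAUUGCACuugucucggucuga
The arms whose share of their duplex, or whose read ends, are described below have other seeds.
miR-17-3p: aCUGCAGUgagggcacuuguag
miR-106b-3p: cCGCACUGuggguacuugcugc
In the libraries the most frequent read of 10 of the 15 arms with enough reads was the RefSeq sequence itself. In the other 5 it had the same first base and ended elsewhere.

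The Ago2ADH library held 7046197 reads, of which 2811227 were miRNA reads, and the wild type library held 7599870 reads, of which 2808232 were miRNA reads. At this depth 3 reads correspond to 1.07 reads per 1000000 miRNA reads (RPM) in either library. PCR copies of a molecule could not be recognised, since the reads have no molecular identifiers, so every 95% interval and floor covers counting error only. The tissue label was checked with fragments of marker mRNAs in the same table, scaled to all reads. All 22 hepatocyte markers had 20 or more fragments, with summed levels of 14914 fragments per 1000000 reads in Ago2ADH and 14777 in wild type. Of 31 erythroid symbols, 26 had fragments, with summed levels of 1434 fragments per 1000000 reads in Ago2ADH and 2137 in wild type. The embryonic globin Hbb-bh1 was at 0 fragments in Ago2ADH and 1 in wild type, and the embryonic globin Hbb-y at 7 and 9.

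The 2 clusters stood on opposite sides of equality. miR-17-92 had 88502 reads in Ago2ADH and 70629 in wild type, or 31482 and 25151 RPM. This is a ratio of 1.25, a log2 ratio of 0.32 (95% interval 0.31 to 0.34). miR-106b-25 had 26388 reads in Ago2ADH and 31570 in wild type, or 9387 and 11242 RPM, a log2 ratio of -0.26 (-0.28 to -0.24). Both kept their sign under each scaling tried, with ranges of 0.12 to 0.43 for miR-17-92 and -0.46 to -0.15 for miR-106b-25. The balance between them does not depend on scaling: miR-17-92 gave 77.0% of the reads of both clusters in Ago2ADH (76.8 to 77.3) and 69.1% in wild type (68.8 to 69.4). Together the clusters made up 4.09% of miRNA reads in Ago2ADH (4.06 to 4.11) and 3.64% in wild type (3.62 to 3.66). In RNA of a whole organ, fewer cells of a type and less RNA per cell cannot be told apart. Among the markers given further on, 11 of 23 erythroid, 5 of 20 proliferation and 12 of 22 hepatocyte genes were lower in Ago2ADH. Those higher numbered 1, 0 and 4 in that order. These counts are beyond counting error with scaling to all reads, and over all genes 5.95% were lower and 6.21% higher. They were not repeated with scaling to RefSeq transcript reads. By that scaling the median log2 ratios were -0.28 for erythroid, 0.03 for proliferation and 0.01 for hepatocyte genes (all genes 0.08). Genes with many fragments pass counting error at small differences. Alb, with 36365 fragments in Ago2ADH and 40362 in wild type, counted as lower at a log2 ratio of -0.04. The part of these markers in the cluster levels was not tested.

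**Figure D1:**
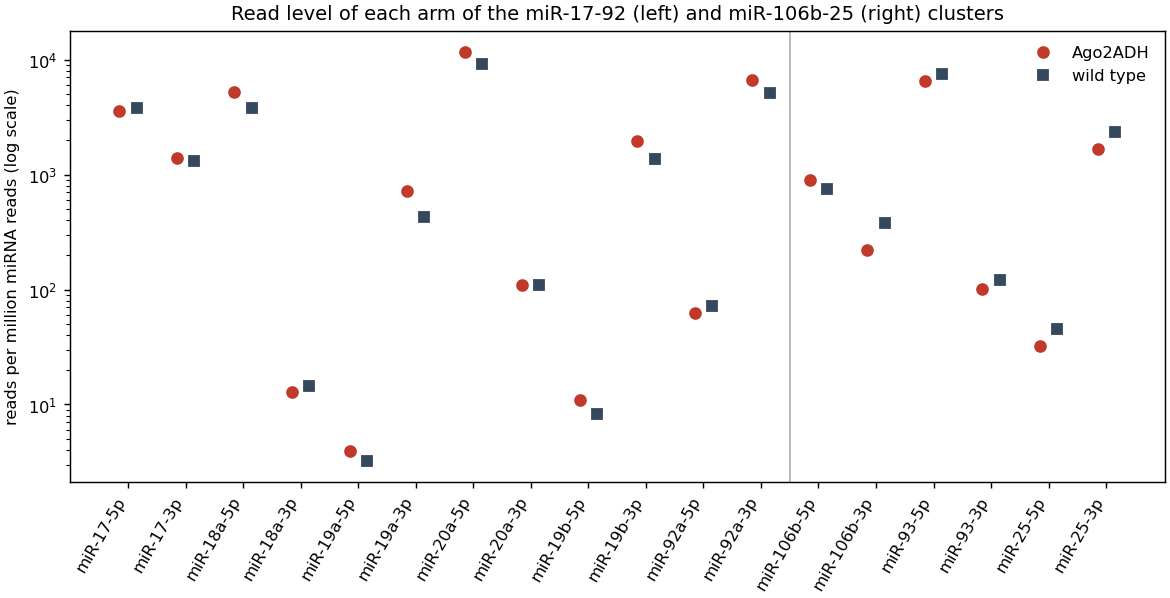
Read level of each arm in reads per 1000000 miRNA reads on a log axis, with 1 library per point (red circles, Ago2ADH; dark squares, wild type). miR-20a-5p is the highest of the 18 arms in both libraries, at 11728 RPM in Ago2ADH and 9156 RPM in wild type.

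Arms were called higher or lower by a size rule, which asks for 100 or more reads over both libraries, a ratio of at least 2 or at most 0.5, and an interval that excludes 1. Of 353 arms with enough reads, 20 rose, which is 5.67%, and 3 fell, which is 0.85%. The split was 13 higher and 4 lower with median-of-ratios or TMM scaling. It was 11 and 5 with miR-451 left out of the miRNA total, and 10 and 5 without the 10 most abundant arms. Of the 15 member arms with enough reads, 0 met the rule in either direction, beside 6.52% of all arms. The count was also 0 under these other scalings. The 3 arms under the minimum had 36 reads in Ago2ADH and 41 in wild type (miR-18a-3p), 31 and 23 (miR-19b-5p), and 11 and 9 (miR-19a-5p). Beyond counting error alone, 7 member arms lay above 0 and 6 below, while 48.4% of all arms lay above and 19.8% below. These counts move with the scaling. With all reads 7 member arms lay above and 3 below, beside 60.3% and 11.9% of all arms. With median-of-ratios 6 lay above and 8 below, beside 30.6% and 31.7%, and without the 10 most abundant arms 5 lay above and 8 below, beside 26.3% and 37.1%. The median log2 ratio was 0.36 over the 9 miR-17-92 arms and -0.38 over the 6 miR-106b-25 arms, and it was 0.15 over all 353 arms, whose middle 50% ran from -0.12 to 0.42.

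**Figure D2:**
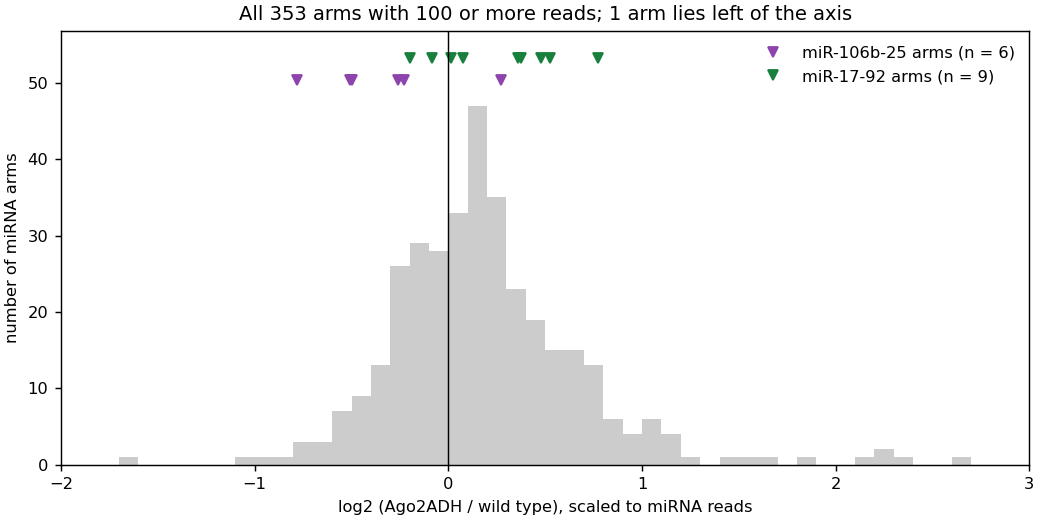
Distribution of log2 ratios, Ago2ADH over wild type, across the 353 arms with 100 or more reads, in bins of width 0.1, with the member arms as triangles. The miR-106b-25 arms lie below 0 except miR-106b-5p at 0.27, and the miR-17-92 arms run from -0.20 to 0.77.

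Within miR-17-92, the guide arm of the first hairpin stood apart from the other guide arms. miR-17-5p, which targets E2F and Cdkn1a mRNAs, had 10045 reads in Ago2ADH and 10642 in wild type, or -0.08 (-0.12 to -0.05) on the log2 scale, and its sign turned when scaled to all reads (0.03). miR-20a-5p, which has the same seed, had 32971 reads in Ago2ADH and 25711 in wild type, or 0.36 (0.33 to 0.38) on the log2 scale. These arms come from 1 transcript, and their intervals do not overlap. As a share of the cluster's reads, miR-17-5p was 11.4% in Ago2ADH (11.1 to 11.6) and 15.1% in wild type (14.8 to 15.3), and miR-20a-5p was 37.3% (36.9 to 37.6) and 36.4% (36.0 to 36.8).

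miR-18a-5p, which is known to target Smad pathway mRNAs, had 14836 reads in Ago2ADH and 10626 in wild type, or 0.48 (0.44 to 0.52) on the log2 scale. miR-19a-3p, which is known to promote cell survival together with miR-19b, had 2044 reads in Ago2ADH and 1197 in wild type. Its log2 ratio of 0.77 (0.67 to 0.87) was the highest of the member arms, at rank 321 of 353 counted from the lowest. miR-19b-3p had 5557 reads in Ago2ADH and 3865 in wild type, or 0.52 (0.46 to 0.58) on the log2 scale. miR-92a-3p, which targets integrin mRNAs in vessels and Bcl2l11, had 18572 reads in Ago2ADH and 14303 in wild type, or 0.38 (0.34 to 0.41) on the log2 scale. The guide arms of the 5 hairpins after Mir17 were thus all higher in Ago2ADH, under each scaling tried. For miR-19b-3p nearly all reads also match the chromosome X copy, so its level cannot be assigned to Mir19b-1.

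Within miR-106b-25, the ratio of the guide arm was lower with each hairpin along the transcript. The other arms did not keep this order, with log2 ratios of -0.78, -0.26 and -0.50. miR-106b-5p had 2535 reads in Ago2ADH and 2096 in wild type, or 0.27 (0.19 to 0.36) on the log2 scale. miR-93-5p, the most abundant arm of the cluster, had 18179 reads in Ago2ADH and 21287 in wild type, or -0.23 (-0.26 to -0.20) on the log2 scale. miR-25-3p had 4678 reads in Ago2ADH and 6653 in wild type, or -0.51 (-0.56 to -0.46) on the log2 scale. None of these 3 intervals overlaps another. The share of the cluster's reads held by miR-106b-5p was 9.61% in Ago2ADH (9.25 to 9.97) and 6.64% in wild type (6.37 to 6.92), and that of miR-25-3p was 17.7% (17.3 to 18.2) and 21.1% (20.6 to 21.5). Among all 353 log2 ratios, that of miR-25-3p had rank 17 from the lowest.

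**Figure D3:**
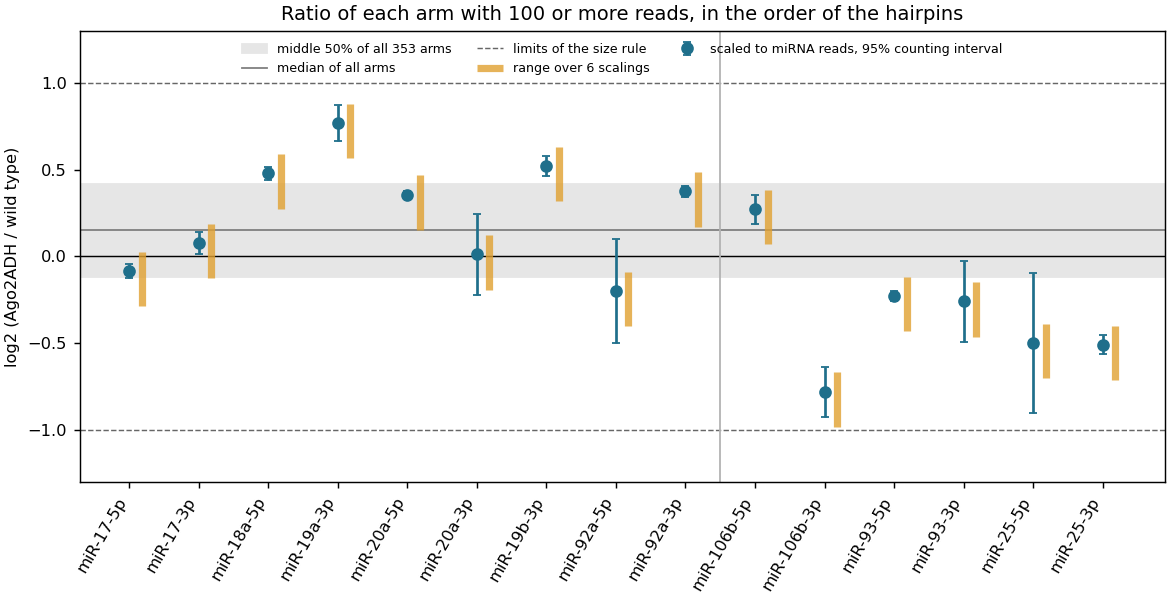
Log2 ratios, Ago2ADH over wild type, for the 15 member arms with 100 or more reads, in the order of the hairpins along each transcript. Points have 95% counting intervals, orange bars span 6 scalings, and the grey band is the middle 50% of all arms (-0.12 to 0.42); no point reaches the dashed limits of the size rule.

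Members of a seed family did not all differ in the same direction. The seed AAAGUGC, shared by miR-17-5p, miR-20a-5p, miR-106b-5p and miR-93-5p, had 63730 reads in Ago2ADH and 59736 in wild type, or 0.09 (0.08 to 0.11) on the log2 scale. Its sign turned in 4 of the 5 other scalings, which gave -0.11 to 0.20. Its arms ran from -0.23 to 0.36, and it made up 55.5% of the reads of both clusters in Ago2ADH and 58.5% in wild type. The seed AUUGCAC, shared by miR-92a-3p and miR-25-3p, had 23250 reads in Ago2ADH and 20956 in wild type, or 0.15 (0.12 to 0.18) on the log2 scale, although its 2 arms stood at 0.38 and -0.51. This sum ranged from -0.06 to 0.26 over the scalings, so its direction depends on them. The seed GUGCAAA of miR-19a-3p and miR-19b-3p occurs in miR-17-92 but not in miR-106b-25, and it had 7601 reads in Ago2ADH and 5062 in wild type, or 0.58 (0.53 to 0.64) on the log2 scale. It made up 6.62% of the reads of both clusters in Ago2ADH and 4.95% in wild type, and its log2 ratio stayed above 0 under each scaling tried (0.38 to 0.70).

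Among the members, the arms of a duplex differed most at Mir106b. Its minor arm, miR-106b-3p, had 624 reads in Ago2ADH and 1070 in wild type, or -0.78 (-0.92 to -0.64) on the log2 scale, which is rank 6 of 353 from the lowest. The major arm of the same hairpin was at 0.27, so the share of the minor arm was 19.8% in Ago2ADH (18.4 to 21.2) and 33.8% in wild type (32.1 to 35.5). The summed reads of both arms were nearly equal, 3159 in Ago2ADH and 3166 in wild type. On the log2 odds scale the share of miR-106b-3p differed by -1.05 (-1.22 to -0.89). Over all 214 hairpins that had both arms and at least 200 reads, the minor-arm odds lay above 0 in 17.3% and below 0 in 22% beyond counting error.

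Of the other 8 members, 1 lay above 0 and 3 below. miR-17-3p, an abundant minor arm, had 3915 reads in Ago2ADH and 3705 in wild type, and made up 28.0% of its duplex in Ago2ADH (27.3 to 28.8) and 25.8% in wild type (25.1 to 26.5). Its log2 ratio of 0.08 (0.01 to 0.14) turned negative in 4 of the 5 other scalings, but its share of the duplex does not depend on scaling. miR-92a-5p made up 0.939% in Ago2ADH (0.806 to 1.09) and 1.39% in wild type (1.21 to 1.60), from 176 and 202 reads, and its log2 ratio was -0.20 (-0.50 to 0.10). miR-20a-3p made up 0.926% in Ago2ADH (0.825 to 1.03) and 1.17% in wild type (1.05 to 1.31), from 308 and 305 reads. Its log2 ratio of 0.01 (-0.22 to 0.25) also turned negative in those 4 scalings. miR-18a-3p made up 0.242% in Ago2ADH and 0.384% in wild type, and its intervals overlap although that of the odds excludes 0. At Mir93 and Mir25 both arms had like ratios. miR-93-3p, with 282 reads in Ago2ADH and 337 in wild type, was at -0.26 (-0.49 to -0.03) beside -0.23 for miR-93-5p. miR-25-5p, with 90 reads in Ago2ADH and 127 in wild type, was at -0.50 (-0.90 to -0.10) beside -0.51 for miR-25-3p. For miR-19a, miR-19b, miR-93 and miR-25 the interval of the odds held 0.

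**Figure D4:**
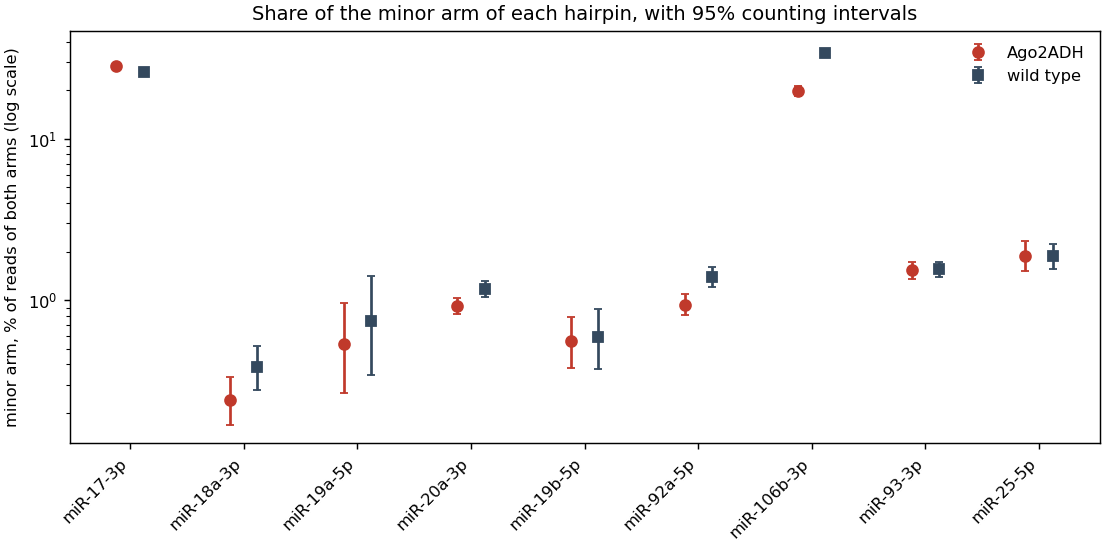
Reads of the minor arm as a percent of the reads of both arms on a log axis, for the 9 members, with 95% counting intervals (red circles, Ago2ADH; dark squares, wild type). miR-106b-3p stands at 19.8% in Ago2ADH and 33.8% in wild type, and miR-17-3p at 28.0% in Ago2ADH and 25.8% in wild type.

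The read ends of several arms also differed. The 5′ end, which sets the seed, was the main one in at least 86.4% of the reads of each arm in either library, so most variation lay at the 3′ end. For miR-18a-5p the full read and a form shorter by its last bases were both frequent.
23-nt form of miR-18a-5p: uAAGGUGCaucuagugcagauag
21-nt form of miR-18a-5p: uAAGGUGCaucuagugcagau
The 23-nt form had 7605 reads in Ago2ADH and 5957 in wild type, and the 21-nt form had 3898 and 2338. Reads shorter than 23 nt made up 42.8% of the arm in Ago2ADH (42.1 to 43.6) and 37.8% in wild type (36.9 to 38.7). Thus the short forms of miR-18a-5p were higher by 0.66 on the log2 scale (0.60 to 0.72), and the 23-nt reads by 0.35 (0.30 to 0.40).

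miR-17-3p showed the opposite. Its 23-nt form carries the next base of the hairpin, C, after the 22-nt form.
22-nt form of miR-17-3p: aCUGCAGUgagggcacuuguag
23-nt form of miR-17-3p: aCUGCAGUgagggcacuuguagc
The 22-nt form had 1607 reads in Ago2ADH and 1609 in wild type, and the 23-nt form had 1519 and 1157. Reads longer than 22 nt made up 39.8% of the arm in Ago2ADH (38.3 to 41.4) and 32.2% in wild type (30.7 to 33.7). Reads shorter than 22 nt made up 16.4% in Ago2ADH (15.3 to 17.6) and 20.9% in wild type (19.6 to 22.3). Reads of this arm that start 1 base later, and so have a shifted seed, made up 3.78% in Ago2ADH (3.20 to 4.43) and 5.32% in wild type (4.62 to 6.09).

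Short reads were also a larger share of miR-25-3p, 22.5% in Ago2ADH (21.3 to 23.7) and 18.9% in wild type (17.96 to 19.9). They were a smaller share of miR-93-5p, 12.9% in Ago2ADH (12.4 to 13.4) and 14.4% in wild type (14.0 to 14.9). Long reads were a smaller share of miR-17-5p, 24.3% in Ago2ADH (23.4 to 25.1) and 26.02% in wild type (25.2 to 26.9), and of miR-20a-5p, 6.37% (6.11 to 6.64) and 7.43% (7.11 to 7.76). In all, the short share was higher in Ago2ADH in 2 of 15 arms and lower in 2, with intervals that do not overlap. Over all 353 arms it was higher in 3.4% and lower in 13.6%. The long share was higher in 1 member arm and lower in 2, and over all arms it was higher in 3.97% and lower in 3.4%.

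**Figure D5:**
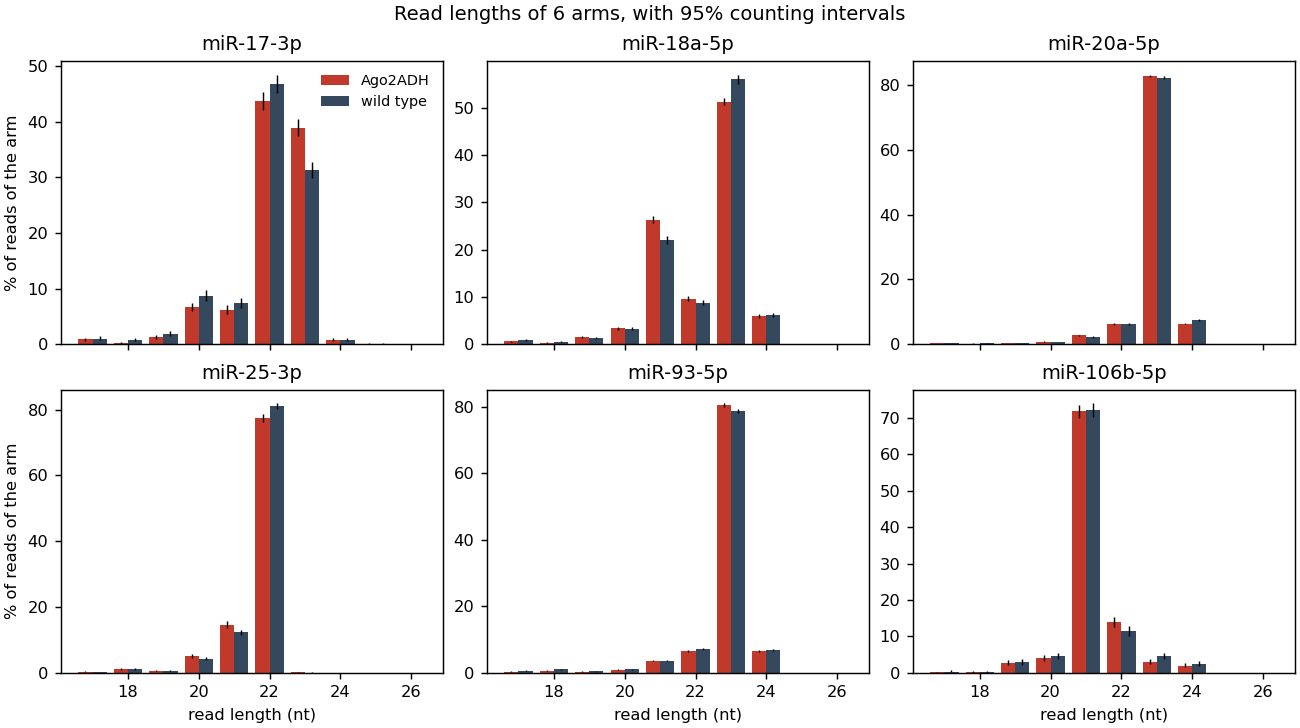
Share of the reads of an arm by read length in nt for 6 member arms, with 95% counting intervals (red bars on the left of each pair, Ago2ADH; dark bars on the right, wild type). In miR-18a-5p the short reads are 42.8% in Ago2ADH and 37.8% in wild type, and in miR-17-3p the long reads are 39.8% in Ago2ADH and 32.2% in wild type.

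Reads that match the hairpin up to the last base and then carry 1 base of their own were counted apart. The share with an added A was lower in Ago2ADH beyond counting error in 3 of 15 arms and higher in 0, against 7.65% lower and 1.42% higher over all arms. The 3 arms were miR-20a-5p, at 12.9% in Ago2ADH and 13.65% in wild type, miR-93-5p, at 8.28% and 9.08%, and miR-18a-5p, at 4.32% and 5.46%. The share with an added U was lower in 1 arm, miR-106b-5p, at 10.5% in Ago2ADH (9.44 to 11.7) and 13.3% in wild type (11.97 to 14.6), and higher in 0. Over all arms 2.83% were lower and 4.53% higher for U. It was high in both miR-19 arms, at 14.7% in Ago2ADH and 13.1% in wild type for miR-19b-3p, and at 12.05% and 10.2% for miR-19a-3p, with intervals that overlap. A sequencing error in the last base looks the same as an added base.

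Reads were traced to the chromosome 14 or X copy where the sequences allow it. For miR-92a-3p the copies differ in the base after the shared sequence, shown in capitals.
miR-92a-3p from Mir92-1: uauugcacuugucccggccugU
miR-92a-3p from Mir92-2: uauugcacuugucccggccugA
Reads that match Mir92-1 alone numbered 17253 in Ago2ADH and 13138 in wild type, 92.9% and 91.9% of the arm. Reads that match Mir92-2 alone numbered 297 in Ago2ADH and 275 in wild type, 1.60% and 1.92%, but a base A from chromosome X cannot be told apart from an A added to the shared sequence. The copies differ at several bases of the minor arm, and all 176 of its reads in Ago2ADH and 200 of 202 in wild type matched Mir92-1. For the 0 of 176 reads from Mir92-2 in Ago2ADH, the Clopper-Pearson upper limit is a share of 2.07%, and the floor of 3 counts corresponds to 1.70%. For miR-19b-3p, 5504 reads in Ago2ADH and 3821 in wild type matched both copies, so this main arm could not be divided. Mir19b-2 alone was matched by 53 reads in Ago2ADH and 43 in wild type, and Mir19b-1 alone by 0 and 1. Here too, a base U from chromosome X cannot be told apart from a U added to the shared sequence. Of the few reads of the minor arm, miR-19b-5p, 30 of 31 in Ago2ADH and 23 of 23 in wild type matched Mir19b-1.

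Relatives outside the clusters had at most 694 reads over both libraries, fewer than any guide arm of the clusters. Of 25 such arms with reads, 5 had 100 or more over both libraries. miR-106a-5p and miR-20b-5p, from the related cluster on chromosome X, had 245 and 253 reads in Ago2ADH and 263 and 228 in wild type, with log2 ratios of -0.10 (-0.36 to 0.15) and 0.15 (-0.12 to 0.41). The stem cell miRNAs miR-294-3p and miR-295-3p had 94 and 56 reads in Ago2ADH and 109 and 69 in wild type, and their intervals also held 0. miR-32-5p, which has the seed of miR-92a and miR-25, rose to 481 reads in Ago2ADH, against 213 in wild type, or 1.17 (0.94 to 1.41) on the log2 scale. It no longer met the rule with miR-451 (log2 ratio 0.997, under the limit of 1) or the 10 most abundant arms (0.97) left out of the miRNA total. The non-member arms nearest to miR-17-92 by Euclidean distance on the log2 RPM scale over the 2 libraries were miR-22-3p (distance 0.29), miR-16-5p (0.52) and miR-21-5p (0.74). Those nearest to miR-106b-25 were miR-127-3p (0.17), let-7a-5p (0.28) and miR-103-3p (0.32).

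The table also lists short pieces of mRNAs, which were compared for the host, the inducers and the targets of the clusters, scaled to all reads. Of 9550 genes with 20 or more fragments over both libraries, 6.21% lay above 0 and 5.95% below beyond counting error, and their median log2 ratio was -0.01. Mcm7, the host of miR-106b-25, had 53 fragments in Ago2ADH and 62 in wild type, or -0.12 (-0.67 to 0.44) on the log2 scale. Of 5 host and inducer genes at this minimum, 1 was lower and 0 were higher. That gene was E2f2, an activator of S-phase genes that is also a target of the miR-17 seed, with 109 fragments in Ago2ADH and 186 in wild type, or -0.66 (-1.02 to -0.31) on the log2 scale. Of 7 host and inducer symbols looked up, 6 had fragments. Mir17hg, the host gene of miR-17-92, had none under this name, so its level could not be compared.

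Of 26 known target genes at the minimum, 2 were higher and 2 lower, beside 6.21% higher and 5.95% lower over all genes. Their median log2 ratio was 0.10. When scaled to RefSeq transcript reads, 3 were higher and 2 lower, with a median of 0.18 (all genes 0.08). Tgfbr2, the type II TGF-beta receptor, had 113 fragments in Ago2ADH and 91 in wild type, or 0.42 (0.01 to 0.84) on the log2 scale. Kat2b, a histone acetyltransferase, had 129 fragments in Ago2ADH and 103 in wild type, or 0.43 (0.05 to 0.82) on the log2 scale. The lower genes were E2f2 and Rbl1, a relative of the retinoblastoma protein, with 16 fragments in Ago2ADH and 35 in wild type and a log2 ratio of -1.02 (-1.97 to -0.13). Bcl2l11, which encodes a protein that promotes cell death, had 58 fragments in Ago2ADH and 71 in wild type, or -0.18 (-0.71 to 0.34) on the log2 scale. It was named outside the rule as a well-known target, after its values were seen. A fragment count may follow mRNA breakdown as well as mRNA level, and the 2 were not separated.

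Markers of the cells that make up the organ are given beside these levels. Of 20 proliferation genes at the minimum, 0 were higher and 5 lower, with a median of -0.06 that turned to 0.03 when scaled to RefSeq transcript reads (all genes 0.08), and their summed level was 168 fragments per 1000000 reads in Ago2ADH and 203 in wild type. Mki67 was 1 of the 5 lower genes, with 202 fragments in Ago2ADH and 360 in wild type, or -0.72 (-0.98 to -0.47) on the log2 scale. Top2a, which had the most fragments of this list, had 519 in Ago2ADH and 588 in wild type. Its log2 ratio was -0.07 (-0.24 to 0.10), an interval that held 0. Of 23 erythroid genes, 1 was higher and 11 lower, with a median of -0.37 (-0.28 by RefSeq reads). Of 12 myeloid and lymphoid genes, 0 were higher and 2 lower, with summed levels of 163 fragments per 1000000 reads in Ago2ADH and 182 in wild type. Of 4 megakaryocyte genes, 0 were higher and 0 lower. Of 22 hepatocyte genes, 4 were higher and 12 lower, with a median of -0.08 (0.01 by RefSeq reads). Many of them have so many fragments that small differences pass counting error. Their summed level was 14914 fragments per 1000000 reads in Ago2ADH and 14777 in wild type. Of 11 endothelial and stellate genes, 0 were higher and 2 lower, with a median of -0.33 (-0.25 by RefSeq reads), near that of the erythroid genes. The part of these cell markers in the cluster levels was not tested.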

How the data were processed

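The deposited values are raw counts of each distinct read sequence in each library, and the authors list its genome matches, class and name beside it, per the file headers. Per the labels, RNA of 19 to 30 nt was cut from a gel, ligated to adapters, amplified and sequenced. Of the aligner, genome build and adapter trimming the sources used here give nothing. miRNA-class reads were placed by exact match on the hairpins of GENCODE release M21 (GRCm38), which took 99.86% of them in Ago2ADH and 99.83% in wild type. The arm was set by the side of the hairpin's middle. Of the member reads, 93.8% in Ago2ADH and 94.9% in wild type match the genome once. Levels are reads divided by the library's miRNA reads. Log2 ratios have exact conditional binomial 95% intervals and shares have exact Clopper-Pearson 95% intervals. Minor-arm odds had 0.5 added to each count. Added bases were sought after at least 19 matching bases. Genes named are all member arms, relatives with 100 or more reads, the 3 nearest arms per cluster and Mcm7. Genes of the host, inducer and target lists are named where the interval excludes 0, at most 6 per list. Bcl2l11, Mir17hg and the cell markers Mki67, Top2a, Hbb-bh1 and Hbb-y are named outside this rule. The members and lists were chosen with earlier results of these data known. The code of the size rule was checked on simulated counts that hold counting noise only. Alternatives were other scalings, TMM by edgeR 4.0.16 among them, other read subsets, minimums and fold limits. Python 3.11.15, pandas 2.3.3 and SciPy 1.17.1 were used.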

Additional observations from a re-analysis of the deposited data

How the results depend on the processing

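No paired analysis was possible because each genotype had 1 library. Other scalings shifted all log2 ratios by the same amount, 0.11 with all reads, -0.15 with median-of-ratios, -0.14 with TMM, -0.18 without miR-451 in the total and -0.20 without the 10 most abundant arms. In that order the log2 ratio of miR-17-92 was 0.43, 0.17, 0.18, 0.15 and 0.12, and that of miR-106b-25 was -0.15, -0.41, -0.40, -0.44 and -0.46. With reads of 20 to 24 nt they were 0.26 and -0.32, and with reads of 1 genome match miR-17-92 was at 0.31. Of the 15 member arms, miR-17-5p changed sign with all reads, miR-17-3p and miR-20a-3p with the other 4 scalings, and miR-20a-3p with reads of 20 to 24 nt. The arms that met the size rule numbered 23 of 353, and 15 without the 10 most abundant arms in the total. They numbered 38 at a minimum of 20 reads, 14 at 500, 41 with no minimum and 72 at a fold limit of 1.5. At that limit 2 member arms met it, miR-19a-3p higher and miR-106b-3p lower, and under the other settings 0 did. With reads of 1 genome match the minor-arm share of miR-19b was 36.9% in Ago2ADH and 34.3% in wild type, since most reads of its main arm match 2 loci. Counting reads with 1 added base was chosen after seeing the data and gave 0.31 and -0.27 for the clusters. Depth limits the minor arms with under 100 reads and the mRNA fragments of single genes.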
